A study of Homo sapiens with 6 samples.

Results

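Actin and the proteins that bind it are described here as 1 group of 54 genes, together with targets of the serum response factor SRF, in HCC827 cells treated with erlotinib. The genes were chosen by symbol, from a list of actins, actin-binding proteins, non-muscle myosin subunits, adhesion linkers and SRF itself, and all 54 were found among the 28395 genes of the deposited table. HCC827, an established cell line from a human lung adenocarcinoma, carries an activating deletion in the kinase domain of EGFR, the receptor kinase that erlotinib blocks. RNA was sequenced from 3 libraries of cells treated with the vehicle DMSO and 3 of cells treated with 1 μM erlotinib, all for 24 h. The libraries held between 20760204 and 24641819 reads on genes. All come from 1 cell line, and the labels do not say whether the 3 libraries of a treatment came from separate cultures, so the p-values measure the spread between these libraries. The libraries are called DMSO1 to DMSO3 and Erlo4 to Erlo6, as in the table. DMSO2 stood a little apart from its group, with a chi-square per degree of freedom over genes of 24.5 against DMSO1 and 15.3 against DMSO3, where DMSO1 and DMSO3 gave 7.99, pairs of erlotinib libraries 4.17 to 6.18 and pairs across treatments 203 to 253.

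Actin exists in cells as monomers and as filaments. Profilin and thymosins hold monomers, the Arp2/3 complex and formins start or lengthen filaments, capping proteins and gelsolin end or cut them, and tropomyosins, crosslinkers and myosin II turn them into contractile bundles. These bundles pull on adhesions through talin, vinculin and zyxin. SRF binds a short element, the CArG box, in the promoters of many of these genes. Its cofactors of the MRTF family are held in the cytoplasm by actin monomers and released when monomers are used up, while cofactors of the ELK family answer to ERK signalling.

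Most of the genes were lower with erlotinib, and a smaller set was higher. Of the 54 genes, 52 had a mean signal of at least 10 and were tested, where signal is the number of reads divided by the size factor of the library. With erlotinib 31 were lower (59.6% of those tested), 14 were higher (26.9%) and 7 were neither, at an adjusted p-value under 0.05 (limma on log2(signal + 1), Benjamini-Hochberg adjustment over all 14215 tested genes). The background shares, over every gene tested, were 35.4% lower and 35.3% higher. This background takes in every gene with a mean signal of at least 10 and was not matched for signal to the 52 genes. All erlotinib libraries were below all DMSO libraries for 30 of the genes and above them for 15, where the shares over every gene tested were 36.9% and 36.7%. The median log2 fold change was -0.29 over the 52 genes and 0.02 over all tested genes. The largest fall was that of DIAPH3 and the largest rise that of VIL1. The genes lower by at least 1 log2 unit were ACTB, TPM3, PFN1, COTL1 and DIAPH3, 5 in all against 10.8% of all tested genes, and the genes higher by at least 1 log2 unit were TAGLN, TPM2, MYH14, GSN and VIL1, also 5, against 17.0%. When total counts scaled the libraries in place of the deposited size factors, 22 genes were lower (42.3%) and 17 higher (32.7%), where the shares over every gene tested were 27.8% and 43.3%. That scaling raised the median of all tested genes from 0.02 to 0.19, and the median of the 52 genes lay below it by 0.30 log2 units, against 0.31 with the deposited scaling.

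**Figure D1:**
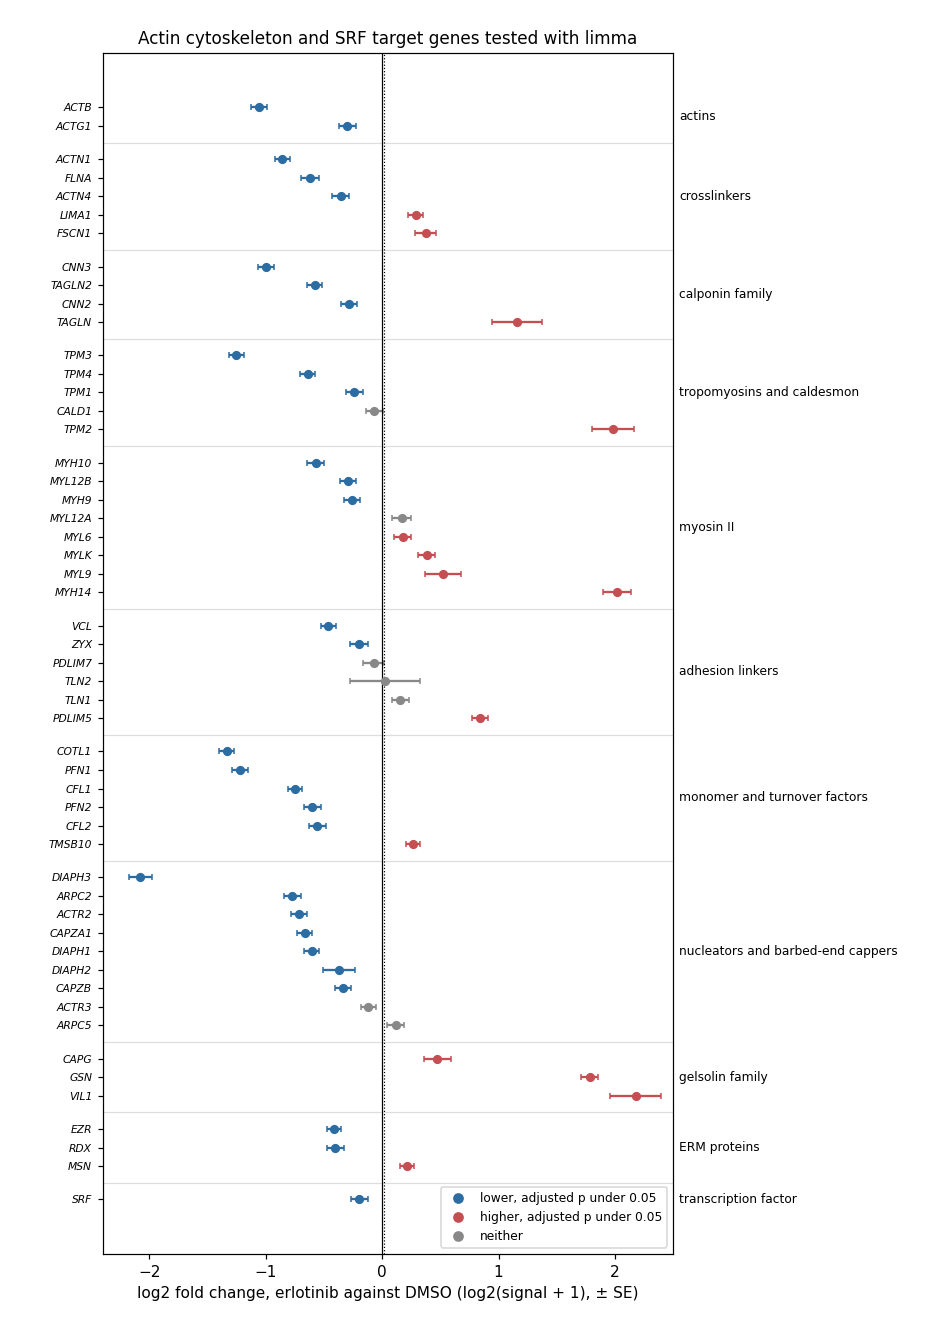
Log2 fold change of erlotinib against DMSO (x axis, on the log2(signal + 1) scale) for the 52 tested genes, grouped by role, with bars for the standard error from limma. The dotted line is the median of all tested genes, 0.02. The 31 blue genes were lower, the 14 red genes higher and the 7 grey genes neither.

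The counts hold relative RNA levels. In bulk libraries a lower share of cells with a transcript and less of it in each cell cannot be told apart. Of all reads on genes, the 54 genes together took 2.96% ± 0.0729 under DMSO and 2.31% ± 0.0441 under erlotinib (mean ± SD of 3 libraries). In each DMSO library they took between 2.89% and 3.03%, and in each erlotinib library between 2.28% and 2.36%, so that the treatments did not overlap. ACTB and ACTG1 alone took 1.08% ± 0.0247 of all reads on genes under DMSO and 0.758% ± 0.01995 under erlotinib.

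SRF (Entrez ID 6722, chr6:43171269-43181506 in GRCh38.p14) had a signal of 2909.8, 2508 and 2804 in the DMSO libraries and 2279, 2458 and 2421 in the erlotinib libraries. All erlotinib libraries were below all DMSO libraries, by a margin of 2458 against 2508 at the nearest. It changed by -0.20 (SE 0.07, limma adjusted p = 0.022) on the log2 scale. The call was lost with total-count scaling (-0.02, adjusted p = 0.83), and with DMSO1, DMSO3 or Erlo4 left out the adjusted p-values were 0.1, 0.068 and 0.11 (limma).

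Of the 6 tested cofactors of SRF, 2 were lower (33.3%), 2 higher (33.3%) and 2 neither. These shares were near those of every gene tested (35.4% and 35.3%). The MRTF coactivator MRTFA had a signal of 1324, 1099 and 1351 in the DMSO libraries and 1548, 1435 and 1619 in the erlotinib libraries, and changed by 0.29 (SE 0.09, limma adjusted p = 0.0062) on the log2 scale. MRTFB was 1749, 1895 and 1918 in the DMSO libraries and 2368, 2429 and 2646 in the erlotinib libraries, a change of 0.42 (SE 0.07, limma adjusted p = 3.8e-05). Both were higher in every erlotinib library than in any DMSO library. ELK1, which joins SRF as a ternary complex factor, had a signal of 1256, 1172 and 1126 in the DMSO libraries and 675, 744 and 693 in the erlotinib libraries, a change of -0.75 (SE 0.09, limma adjusted p = 1.6e-07). ELK3, of the same family, was 5663, 6629.9 and 6255 in the DMSO libraries and 3236, 3482 and 3579 in the erlotinib libraries, a change of -0.85 (SE 0.07, limma adjusted p = 1.1e-09). These were lower in every erlotinib library than in any DMSO library. ELK4 was 2809, 3691 and 3023 in the DMSO libraries and 2909.6, 2885 and 2904 in the erlotinib libraries and passed in neither direction (-0.12, limma adjusted p = 0.2), but was lower without DMSO1 (-0.20, limma adjusted p = 0.036) and slightly above 0 with total-count scaling (0.059). SCAI, a repressor of MRTF activity, was 417, 434 and 436 in the DMSO libraries and 423, 448 and 468 in the erlotinib libraries and passed in neither direction either (0.06, limma adjusted p = 0.65). MYOCD, the muscle member of the myocardin family, had 0 reads in all DMSO libraries and at most 4 in an erlotinib library.

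RefSeq promoters, from 250 bases before to 50 bases after a start site of transcription, were given for 48 of the 54 genes, with several windows for 20 of them. None was given for ACTB, FSCN1, TAGLN, MYL9, PFN2 and VIL1, so these were not searched. ACTB, TAGLN and MYL9 are among the genes listed as textbook targets of SRF. The first window listed for a gene was searched. It lay at the start of the gene in 42 cases and at a start site inside the gene for TPM1, TPM3, CALD1, MYLK, CAPG and EZR. Of the 48 windows, 6 (12.5%) hold a CArG box, 10 bases that start with CC, end with GG and have only A or T between. The same element, searched on both strands (it reads as a CArG box on each), is in 1.29% of the first windows of the 27305 genes with a listed promoter. The 6 genes of the group with a box are ACTG1, FLNA, CNN2, MYLK, SRF and TPM4. The group was drawn up to include known targets of SRF, and 5 of these 6 were listed as such. Its higher share of boxes was thus partly set by the choice of genes and is no separate result. The boxes are shown for the 5 genes that were listed as textbook targets of SRF, with 20 bases on each side, 5′ to 3′ on the strand of the gene and with the box in capitals, because SRF is known to bind this element. The regions, in GRCh38.p14, are chr17:81512864-81512913 on the minus strand, chrX:154374699-154374748 on the minus strand, chr19:1026499-1026548 on the plus strand, chr3:123620613-123620662 on the minus strand and chr6:43171219-43171288 on the plus strand.
ACTG1: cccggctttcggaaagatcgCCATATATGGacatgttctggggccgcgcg
FLNA: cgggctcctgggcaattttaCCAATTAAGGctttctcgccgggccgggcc
CNN2: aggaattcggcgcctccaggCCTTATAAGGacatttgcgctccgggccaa
MYLK: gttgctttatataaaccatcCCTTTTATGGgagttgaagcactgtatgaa
SRF: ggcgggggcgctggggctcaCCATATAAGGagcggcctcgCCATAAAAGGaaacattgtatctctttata
The boxes of ACTG1 and FLNA start 94 bases before the start of the gene, and that of CNN2 starts 89 bases before it. The box of MYLK starts 94 bases before a start site that lies 264 kb inside the gene. The promoter of SRF holds a pair, 30 and 10 bases before its start. Of the 6 genes with a box, ACTG1, FLNA, CNN2, TPM4 and SRF were lower with erlotinib and MYLK, counted over the whole gene, was higher. Over every gene tested, 35.4% were lower and 35.3% higher. With total-count scaling ACTG1, CNN2 and SRF no longer passed (limma adjusted p = 0.09, 0.15 and 0.83). FLNA and TPM4 stayed lower, where 27.8% of every gene tested were lower under that scaling. Over every window listed, 7 of the 48 genes (14.6%) have a box, against 1.6% of all genes with a listed promoter. Of all 113 tested genes with a CArG box in this window, 51 were lower (45.1%) and 42 higher, beside 35.4% and 35.3% of every gene tested. Their median was 0.01 on the log2 scale. A match in these letters is a description of the window and not of binding by SRF.

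The 16 genes listed as textbook SRF targets did not move as 1 block. Among the 14 with enough signal, 9 fell (64.3%), 4 rose (28.6%) and CALD1 did neither, beside 35.4% and 35.3% of every gene tested, and the median log2 fold change was -0.22. Of the other 38 genes, 22 were lower (57.9%), 10 higher (26.3%) and 6 neither, with a median of -0.36. The count of lower targets depends on the scaling. With total-count scaling, ACTG1, CNN2, TPM1, MYH9, ZYX and SRF no longer passed (limma adjusted p = 0.09 to 0.83). ACTB, FLNA and VCL stayed lower, where 27.8% of every gene tested were lower. Of the other lower genes, MYL12B, DIAPH2 and CAPZB no longer passed under that scaling. The higher targets were TPM2, TAGLN, MYL9 and MYLK. The textbook targets ACTA2 and CNN1 were not tested because of low signal. ACTA2 had 3, 6 and 5 reads under DMSO and 9, 5 and 11 under erlotinib, and overlaps FAS, which had a mean signal of 239.9. CNN1 had 0, 4 and 2 reads under DMSO and 4, 0 and 1 under erlotinib. At this depth no change of CNN1 was detectable.

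Markers of smooth muscle and fibroblasts were measured beside these genes. Of 9 markers, 7 had a mean signal under 5 over the 6 libraries, including MYH11, which had 0 reads in all of them, and DES, PDGFRA and DCN, which had 0 in the DMSO libraries. The list summed to 73.7, 75.2 and 109 in the DMSO libraries and to 260.2, 223 and 219 in the erlotinib libraries, nearly all of it COL1A1 (signal 77.7 ± 15.3 under DMSO and 216 ± 27.9 under erlotinib, log2 fold change 1.47). The part of these markers in the rise of TAGLN and TPM2 was not tested. Markers of leukocytes (PTPRC, CD3E, CD14 and CD79A) were low, with CD14 at most 24.0, CD79A at most 21.4, CD3E at most 4.28 and PTPRC at most 5.62 in a library, and summed to at most 46.1. The epithelial markers were high in all libraries, with a summed signal of 286814, 254717 and 276894 in the DMSO libraries and 185948, 190140 and 191721 in the erlotinib libraries, and KRT7 gave the most reads. EPCAM (-0.05) and CDH1 (0.14) were neither higher nor lower, while the keratins KRT7 (-0.63), KRT8 (-0.83), KRT18 (-1.25) and KRT19 (-0.39) were lower, with limma adjusted p-values of at most 0.00033. The part of this fall in that of the actin genes was not tested.

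The cytoplasmic actins fell by different amounts. ACTB (Entrez ID 60, chr7:5527148-5530601), which encodes β-actin, had a signal of 147037, 141986 and 146793 in the DMSO libraries and 68709, 70324 and 69819 in the erlotinib libraries. The libraries of a treatment lay close together and the treatments were far apart, and the log2 scale gave a change of -1.06 (SE 0.07, limma adjusted p = 1.4e-11). The genome holds 9 other places that resemble the ACTB transcript. ACTG1 (Entrez ID 71, chr17:81509971-81512799), which encodes γ-actin, had a signal of 109668, 99540 and 103501 in the DMSO libraries and 81246, 84486 and 88388 in the erlotinib libraries. Its groups did not overlap either, and it changed by -0.30 (SE 0.07, limma adjusted p = 0.00081). With total-count scaling it was -0.12 and no longer passed (adjusted p = 0.09). The log2 ratio of ACTB to ACTG1, which hardly depends on how libraries are scaled, was 0.42, 0.51 and 0.50 in the DMSO libraries and -0.24, -0.26 and -0.34 in the erlotinib libraries. Among all genes in the table, ACTB ranked from 3 to 5 by reads in the DMSO libraries and from 12 to 14 in the erlotinib libraries, while ACTG1 ranked from 7 to 9 and from 6 to 8. Per kb of transcript, ACTB was the highest of the 54 genes in DMSO (80172 ± 1572 signal per kb, against 54318 ± 2659.6 for ACTG1, SD, n = 3), and ACTG1 was the highest with erlotinib (44141 ± 1864 against 38420.1 ± 456 for ACTB).

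**Figure D2:**
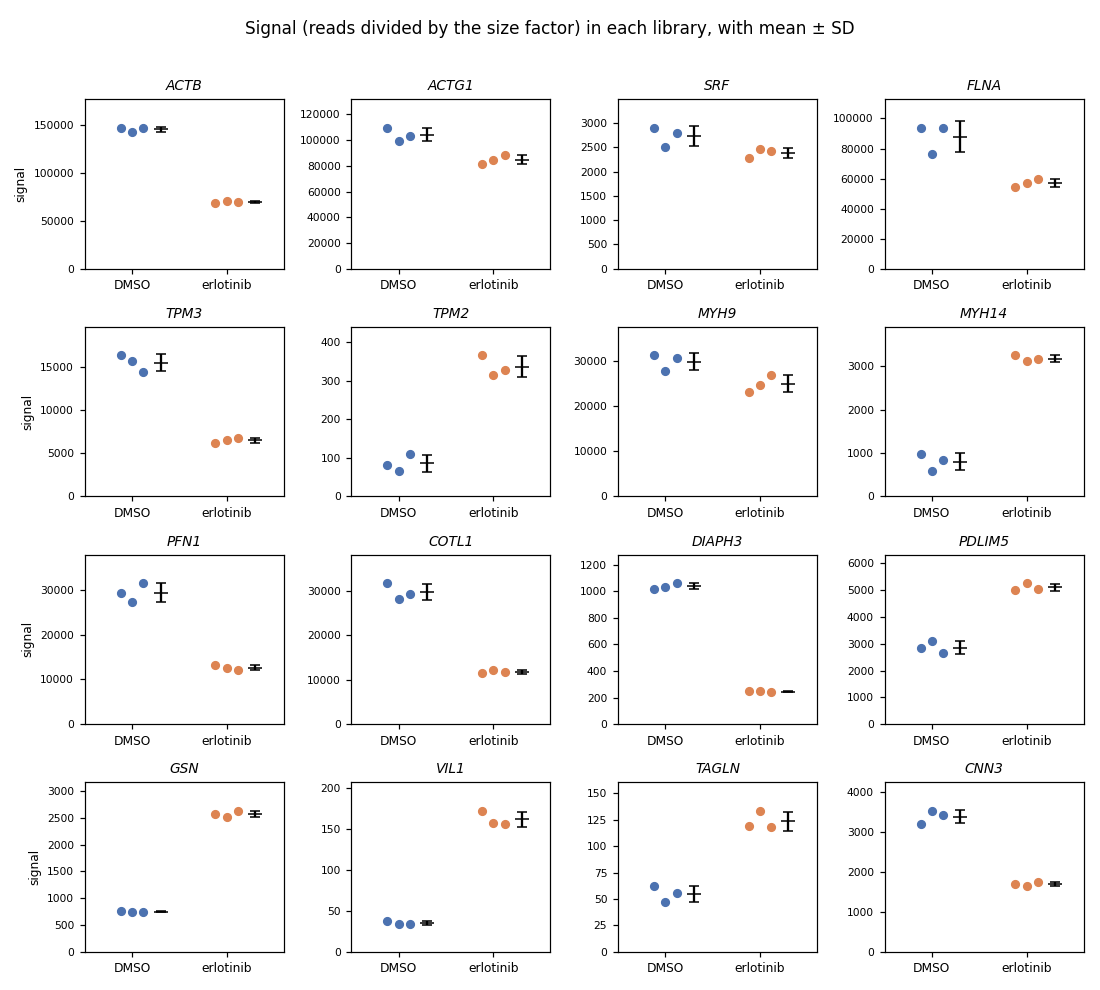
Signal (reads divided by the size factor, y axis from 0) of 16 genes in each of the 3 DMSO (blue) and 3 erlotinib (orange) libraries, with the mean and SD in black. For every gene shown, the DMSO and erlotinib libraries do not overlap, and the nearest are those of SRF, 2458 against 2508.

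Crosslinkers tie filaments into networks and bundles. FLNA (filamin A, Entrez ID 2316, chrX:154348531-154374634) gave the most reads of them, with a signal of 93937, 76399 and 93572 in the DMSO libraries and 54565, 56761 and 59832 in the erlotinib libraries. DMSO2 was lower than the other DMSO libraries and still above all erlotinib libraries, and FLNA changed by -0.62 (SE 0.08, limma adjusted p = 6.8e-07) on the log2 scale. ACTN1 (α-actinin-1) fell most in this group, with a signal of 6660.1, 6184 and 6494 in the DMSO libraries and 3453, 3640.1 and 3575 in the erlotinib libraries and a log2 fold change of -0.86 (SE 0.06, limma adjusted p = 1.7e-10). Its relative ACTN4 fell less (-0.36). FSCN1 (fascin, which packs filaments into filopodia) and LIMA1 (EPLIN, which stabilises filaments at junctions) rose. FSCN1 had a signal of 4649, 3472 and 4675 in the DMSO libraries and 5207, 5517 and 5721 in the erlotinib libraries, a log2 fold change of 0.37 (SE 0.09, limma adjusted p = 0.00093). The change of LIMA1 was 0.29 (SE 0.07, limma adjusted p = 0.00064).

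In the calponin family, 3 of 4 tested genes were lower (35.4% of all tested genes were) and 1 was higher (35.3%). CNN3 (calponin 3) fell most, with a signal of 3204, 3532 and 3414 in the DMSO libraries and 1699.8, 1636 and 1739 in the erlotinib libraries and a log2 fold change of -0.999 (SE 0.07, limma adjusted p = 7.1e-11), just short of 1 unit. TAGLN2 (transgelin-2), which gave the most reads, had a signal of 15191, 13811 and 15302 in the DMSO libraries and 9606, 9884 and 10137 in the erlotinib libraries and a log2 fold change of -0.58 (SE 0.06, limma adjusted p = 6.3e-08). CNN2 (calponin 2) changed by -0.29 (SE 0.07, limma adjusted p = 0.00064), and no longer passed with total-count scaling (-0.11, adjusted p = 0.15). TAGLN (transgelin, or SM22) went the other way, with a signal of 62.4, 47.4 and 55.7 in the DMSO libraries and 119, 134 and 118 in the erlotinib libraries and a log2 fold change of 1.16 (SE 0.22, limma adjusted p = 7.2e-05). It overlaps PCSK7, which had a mean signal of 979 and a log2 fold change of -0.19 (limma adjusted p = 0.064), and the strand that was counted is not given in the sources used here. Per kb of transcript, TAGLN stood at 14.6 ± 1.99 under DMSO and 32.6 ± 2.32 under erlotinib, against 10740.4 ± 604 and 7182 ± 193 for TAGLN2 (mean ± SD of 3 libraries).

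The tropomyosins, which line the filament and set which proteins reach it, changed in composition. TPM3 (Entrez ID 7170, chr1:154155308-154192100) had a signal of 16409, 15778 and 14506 in the DMSO libraries and 6247, 6566 and 6748 in the erlotinib libraries, a log2 fold change of -1.25 (SE 0.07, limma adjusted p = 5.1e-13). TPM4 was 16350.2, 17478 and 15449 in the DMSO libraries and 10179, 10504 and 10931 in the erlotinib libraries, a log2 fold change of -0.64 (SE 0.06, limma adjusted p = 1.9e-08). Both were lower in every erlotinib library than in any DMSO library. TPM1 fell by 0.24 on the log2 scale (SE 0.08, limma adjusted p = 0.008), and was no longer lower with total-count scaling (-0.06, adjusted p = 0.5) or without Erlo4 (adjusted p = 0.078, limma). TPM2 (Entrez ID 7169, chr9:35681993-35690056) rose from a low level, with a signal of 81.7, 66.9 and 110.2 in the DMSO libraries and 366, 315 and 329 in the erlotinib libraries and a log2 fold change of 1.98 (SE 0.18, limma adjusted p = 4.1e-09). Even so it stayed the least abundant of the 4 tropomyosins per kb of transcript, at 283 ± 22.4 with erlotinib against 923 ± 35.9 for TPM3, 3307 ± 280.4 for TPM1 and 4259.6 ± 153 for TPM4 (signal per kb, SD, n = 3). CALD1 (caldesmon, which binds actin and tropomyosin) was neither (-0.07, adjusted p = 0.44, limma), and its direction turned with total-count scaling (0.11).

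Of the myosin II genes, the heavy chains parted. MYH9 (non-muscle myosin IIA), which gave the most reads, had a signal of 31227, 27664 and 30617 in the DMSO libraries and 23184, 24748 and 26922 in the erlotinib libraries, a log2 fold change of -0.26 (SE 0.07, limma adjusted p = 0.0027) that no longer passed with total-count scaling (-0.08, adjusted p = 0.29). MYH10 (IIB) was 3582, 3294 and 3233 in the DMSO libraries and 2164, 2236 and 2404 in the erlotinib libraries, a log2 fold change of -0.57 (SE 0.07, limma adjusted p = 4.4e-07), and overlaps NDEL1 (mean signal 1399.96, log2 fold change -0.10). MYH14 (IIC, Entrez ID 79784, chr19:50203622-50310540) rose, with a signal of 978, 586 and 848 in the DMSO libraries and 3257, 3114 and 3170.5 in the erlotinib libraries and a log2 fold change of 2.01 (SE 0.12, limma adjusted p = 6.2e-12). The DMSO libraries of MYH14 ranged widely, but the highest was under the lowest erlotinib library. Per kb of transcript, MYH10 was above MYH14 in DMSO (437 ± 24.2 against 116 ± 28.9) and below it with erlotinib (294 ± 15.96 against 460.01 ± 10.4, signal per kb, SD, n = 3), and MYH9 was above both in each treatment.

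Among the light chains and their kinase, MYLK (myosin light chain kinase) was higher (0.38, SE 0.07, limma adjusted p = 7.1e-05). MYL9 was higher as well (0.52, SE 0.15, limma adjusted p = 0.005), from 167, 175 and 228 in the DMSO libraries to 239.9, 274 and 301 in the erlotinib libraries. MYL6 was higher by 0.17 (adjusted p = 0.033, limma), a call that was lost in 4 of the 6 fits that left out a library. MYL12A was neither (0.17, adjusted p = 0.064) and MYL12B lower (-0.29, adjusted p = 0.0007, limma). With total-count scaling, MYL12A was higher (0.35, adjusted p = 0.00094) and MYL12B neither (-0.11, adjusted p = 0.15), and MYL12A was also higher by edgeR, by limma with TMM factors and without DMSO2 (adjusted p = 0.043, 0.04 and 0.0012). MYL12A and MYL12B are close paralogs, and how their reads were divided is uncertain.

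Of 6 adhesion linkers, 2 were lower (33.3%), 1 was higher (16.7%) and 3 were neither, the lower share being near the 35.4% of all tested genes (35.3% were higher). VCL (vinculin) gave the most reads and fell most, with a signal of 9961, 10911 and 10016 in the DMSO libraries and 7139, 7422 and 7839 in the erlotinib libraries and a log2 fold change of -0.46 (SE 0.06, limma adjusted p = 2e-06). PDLIM5, a PDZ and LIM domain protein that binds α-actinin, rose with a signal of 2826, 3096 and 2635 in the DMSO libraries and 5002, 5266 and 5039.8 in the erlotinib libraries, a log2 fold change of 0.84 (SE 0.07, limma adjusted p = 1.1e-09). For both genes the treatments did not overlap. VCL shares positions with AP3M1 (mean signal 1837, log2 fold change -0.42, lower). ZYX (zyxin) had a log2 fold change of -0.20 (SE 0.08, limma adjusted p = 0.026), but its libraries overlapped, and it no longer passed with total-count scaling (-0.02) or when DMSO1, DMSO3 or any erlotinib library was left out (adjusted p = 0.065 to 0.14, limma). TLN1, TLN2 (the talins) and PDLIM7 were neither, with log2 fold changes of 0.15, 0.03 and -0.07. TLN1 was higher with total-count scaling (0.33, adjusted p = 0.00044), by edgeR (adjusted p = 0.047), by limma with TMM factors (adjusted p = 0.045) and without DMSO1 (0.20, adjusted p = 0.034, limma).

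Of 6 genes for proteins that hold monomers or turn filaments over, 5 fell and a thymosin rose, where 35.4% of all tested genes fell and 35.3% rose. PFN1 (profilin 1, Entrez ID 5216, chr17:4945652-4948530) had a signal of 29388, 27328 and 31552 in the DMSO libraries and 13216, 12630 and 12026 in the erlotinib libraries, a log2 fold change of -1.22 (SE 0.07, limma adjusted p = 1.3e-12). COTL1 (coactosin-like protein, Entrez ID 23406, chr16:84565596-84618078), which binds filaments, had a signal of 31775, 28128 and 29376 in the DMSO libraries and 11448, 12176 and 11673 in the erlotinib libraries, a log2 fold change of -1.34 (SE 0.06, limma adjusted p = 1.6e-13). Each erlotinib library held less than 0.5 times the lowest DMSO signal of both genes. CFL1 (cofilin 1, which severs filaments) fell by 0.75, PFN2 fell by 0.60 and CFL2 fell by 0.56 on the log2 scale, all with a limma adjusted p of at most 1.3e-06. TMSB10 (thymosin β10, which sequesters monomers) rose, with a signal of 13404, 12883 and 13843 in the DMSO libraries and 15726, 16767 and 15641 in the erlotinib libraries and a log2 fold change of 0.26 (SE 0.06, limma adjusted p = 0.00081). Per kb of transcript, TMSB10 was the fourth of the 54 genes in DMSO, behind PFN1, and the third with erlotinib, ahead of it.

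Of the 9 genes of nucleators and barbed-end cappers, 7 were lower (77.8%) and none was higher, where 35.4% and 35.3% of all tested genes were. DIAPH3 (a formin that acts in cytokinesis and filopodia, Entrez ID 81624, chr13:59665583-60163928) had a signal of 1019, 1035 and 1063 in the DMSO libraries and 246, 248 and 241 in the erlotinib libraries, a log2 fold change of -2.08 (SE 0.10, limma adjusted p = 1.6e-13). Its relative DIAPH1 was 9104, 8909.8 and 8943 in the DMSO libraries and 5659, 5839.8 and 6219 in the erlotinib libraries, a log2 fold change of -0.61 (SE 0.06, limma adjusted p = 2.6e-08). DIAPH2 fell by 0.37 on the log2 scale (SE 0.14, limma adjusted p = 0.019), and no longer passed with total-count scaling (adjusted p = 0.21) or without DMSO3, Erlo4 or Erlo6 (adjusted p = 0.059 to 0.084, limma). Per kb of transcript, DIAPH1 was the highest of the 3 formins in both treatments (1567 ± 18.1 and 1029.8 ± 49.9, against 219 ± 4.71 and 51.7 ± 0.864 for DIAPH3).

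Of 4 genes of the Arp2/3 complex, which starts branches, 2 were lower (35.4% of all tested genes were). ACTR2 (the ARP2 subunit), which gave the most reads of the nucleators and cappers, had a signal of 14743, 16373 and 13704 in the DMSO libraries and 9208, 9407 and 8647 in the erlotinib libraries, a log2 fold change of -0.71 (SE 0.07, limma adjusted p = 1.1e-08). ARPC2 was lower too (-0.77, SE 0.07, limma adjusted p = 4.1e-09). ACTR3 (the ARP3 subunit) and ARPC5 were neither, at -0.12 and 0.11, and with total-count scaling ACTR3 changed sign (0.06) and ARPC5 was higher (0.29, adjusted p = 0.001, limma). ARPC5 was also higher without DMSO2 (0.18, adjusted p = 0.0052, limma). The capping protein genes CAPZA1 (-0.67) and CAPZB (-0.33) were lower, with a limma adjusted p of at most 0.00025, and CAPZB no longer passed with total-count scaling (adjusted p = 0.058).

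All 3 genes of the gelsolin family were higher, as were 35.3% of all tested genes. GSN and VIL1 rose by more than 1 log2 unit, as did 17.0% of all tested genes. GSN (gelsolin, which cuts filaments and caps their ends, Entrez ID 2934, chr9:121201483-121332842) had a signal of 760.1, 744 and 737 in the DMSO libraries and 2569, 2517 and 2630.4 in the erlotinib libraries, a log2 fold change of 1.78 (SE 0.08, limma adjusted p = 1.9e-14). VIL1 (villin, the bundling protein of microvilli, Entrez ID 7429, chr2:218419123-218453295) had a signal of 37.4, 33.4 and 34.2 in the DMSO libraries and 173, 157 and 156 in the erlotinib libraries, a log2 fold change of 2.18 (SE 0.22, limma adjusted p = 1.7e-08). CAPG, which caps filaments and does not cut them, was 374, 345 and 424 in the DMSO libraries and 522, 572 and 491 in the erlotinib libraries, a log2 fold change of 0.47 (SE 0.11, limma adjusted p = 0.00099). In each of them the lowest erlotinib library was above the highest DMSO library. These genes overlap others in position, GSN with RAB14, VIL1 with USP37 and CAPG with ELMOD3. The mean signal over the 6 libraries was 5692 for RAB14 against 1660 for GSN, and 801 for USP37 against 98.6 for VIL1. It was 313 for ELMOD3 against 455 for CAPG. The strand that was counted is not given in the sources used here. RAB14 (log2 fold change -0.35) and USP37 (-0.90) were lower with erlotinib, with a limma adjusted p of at most 0.00013, and ELMOD3 was neither (0.21, adjusted p = 0.13, limma).

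The ERM proteins ezrin, radixin and moesin tie filaments to the membrane. EZR, which gave the most reads, had a signal of 11941, 12567 and 11606 in the DMSO libraries and 9259, 8813 and 9007 in the erlotinib libraries, a log2 fold change of -0.41 (SE 0.06, limma adjusted p = 4.4e-06). RDX fell as well (-0.40, SE 0.08, limma adjusted p = 9.9e-05). MSN was higher, with a signal of 8797, 8748 and 8585 in the DMSO libraries and 10078, 9889 and 10292 in the erlotinib libraries and a log2 fold change of 0.21 (SE 0.06, limma adjusted p = 0.0036). In the DMSO libraries EZR had more signal per kb of transcript than MSN (3944 ± 159.8 against 2199.5 ± 28.1), and with erlotinib the gap was smaller (2957 ± 73.3 against 2547 ± 51.0, SD, n = 3).

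**Figure D3:**
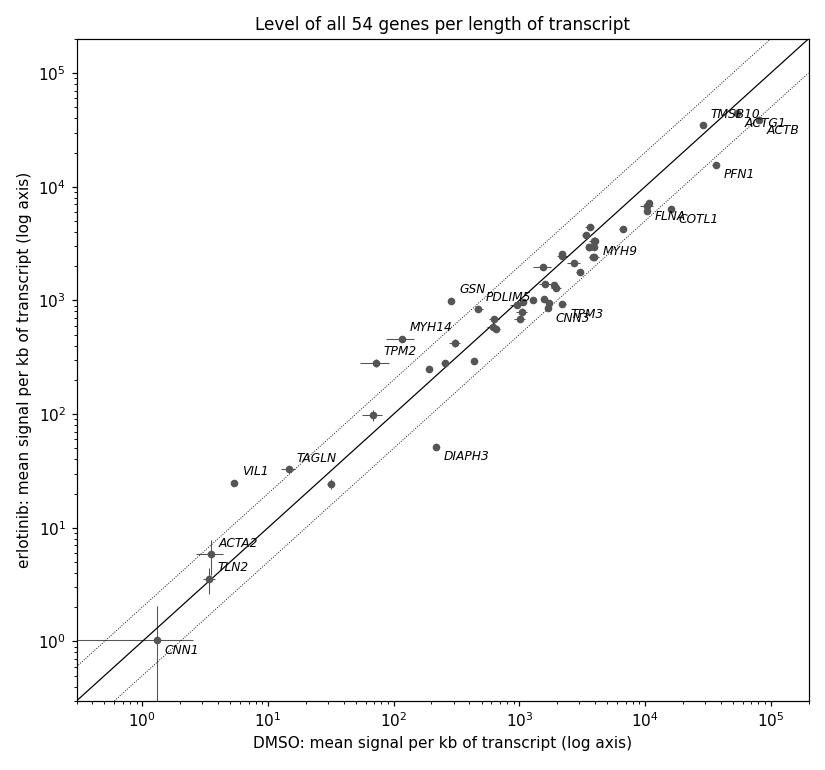
Mean signal per kb of the canonical transcript in DMSO (x axis) and with erlotinib (y axis), both on log axes, for all 54 genes, with SD bars (n = 3). The solid line marks equal levels and the dotted lines a factor of 2. ACTB, PFN1, COTL1, TPM3 and DIAPH3 lie under the lower dotted line, and TAGLN, TPM2, MYH14, GSN and VIL1 above the upper one.

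Ratios between members of a family hardly depend on the scaling of the libraries. Of 22 pairs, 18 had log2 ratios that did not overlap between DMSO and erlotinib libraries, and 5 of these moved by at least 1 log2 unit. The smallest p that an exact two-sided permutation test of 3 against 3 libraries allows is 0.1, which all 18 reached (adjusted over the 22 pairs, 0.122), so this test cannot pass 0.05. Of the single genes tested, the signal of 73.6% did not overlap between the treatments. TPM2 against TPM3 moved most, from -7.63, -7.86 and -7.03 in the DMSO libraries to -4.09, -4.38 and -4.36 in the erlotinib libraries. MYH9 against MYH14 moved from 5.00, 5.56 and 5.17 to 2.83, 2.99 and 3.09. In the first pair the scarcer gene gained on the more abundant, and in the second as well. TAGLN against TAGLN2 moved from -7.90, -8.16 and -8.08 to -6.32, -6.20 and -6.41. DIAPH1 against DIAPH3 moved from 3.16, 3.11 and 3.07 to 4.52, 4.55 and 4.69. CAPG against GSN moved from -1.02, -1.10 and -0.80 to -2.30, -2.14 and -2.42. In these 5 pairs, either a gene that rose was set against one that fell or rose less, or, for the formins, both fell by different amounts. The ratios of EZR to RDX, CFL1 to CFL2, TLN1 to TLN2 and MYL9 to MYL6 overlapped between the treatments.

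**Figure D4:**
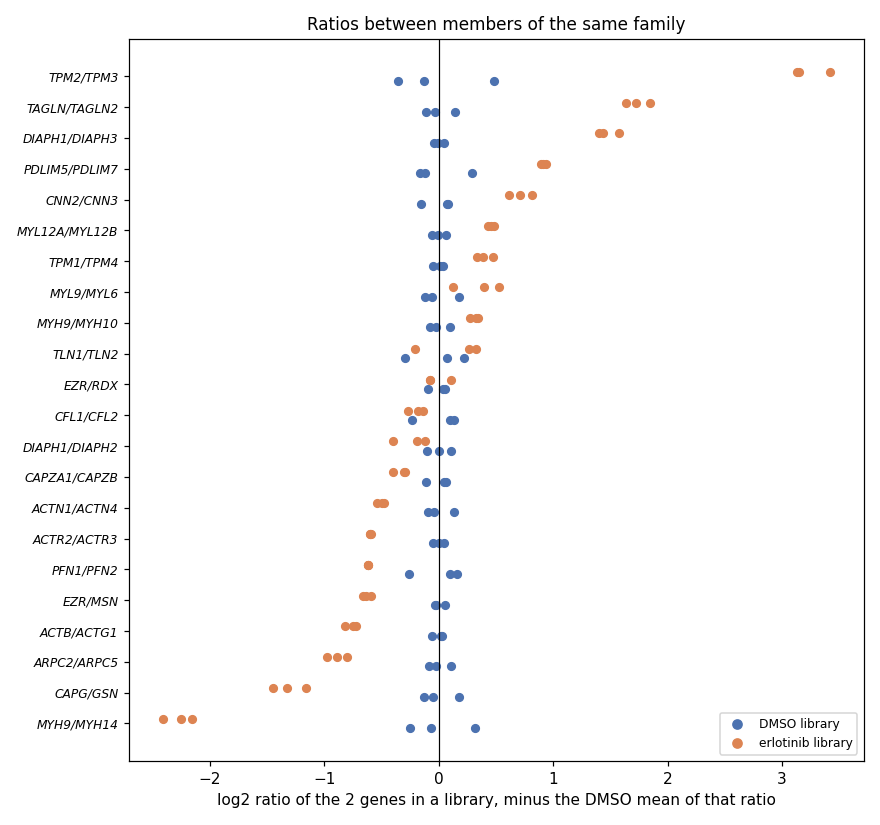
Log2 ratio of 2 genes of a family in each library, minus the mean of that ratio in DMSO (x axis), for 22 pairs, with DMSO libraries in blue and erlotinib libraries in orange. TPM2/TPM3 moved furthest to the right (3.23) and MYH9/MYH14 furthest to the left (-2.27), and 18 of the 22 pairs do not overlap.

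Other genes of the same pathway were listed by function, 90 in all, with 82 tested. Of these, 41 were lower (50%), 24 higher (29.3%) and 17 neither, and the median was -0.22 on the log2 scale, against 35.4% lower and 35.3% higher over all tested genes. RHOA, a small GTPase that drives stress fibres, had a signal of 13674, 13249.5 and 12997 in the DMSO libraries and 9702, 10277 and 9676 in the erlotinib libraries, a log2 change of -0.43 (SE 0.06, limma adjusted p = 2.5e-06). Its relative RHOC was 8308, 6381 and 7220.2 in the DMSO libraries and 4431, 4620.2 and 4742 in the erlotinib libraries, a log2 change of -0.66 (SE 0.08, limma adjusted p = 2.3e-07). Neither overlapped between the treatments. RHOB, an inducible relative, rose from 1518, 1331 and 1376 in the DMSO libraries to 5382, 5302 and 6008 in the erlotinib libraries, a log2 fold change of 1.98 (SE 0.07, limma adjusted p = 3.2e-15). The cofilin phosphatase SSH3 was 1605, 1527 and 1758 in the DMSO libraries and 3334, 3351 and 3144 in the erlotinib libraries, higher by 1.01 log2 units (limma adjusted p = 1.2e-10).

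Among 21 other nucleation factors, 8 were lower (38.1%), 6 higher (28.6%) and 7 neither, shares near those of every gene tested (35.4% and 35.3%). The Arp2/3 subunit ARPC5L (-1.14) was the 1 gene lower by at least 1 log2 unit, and the formin FMNL1 (1.95) the 1 gene higher by that much. ARPC5L had a signal of 3339, 3187 and 2990.4 in the DMSO libraries and 1405, 1519.6 and 1403 in the erlotinib libraries. FMNL1 had a signal of 117, 96.6 and 119 in the DMSO libraries and 439, 418 and 433 in the erlotinib libraries. Neither gene overlapped between the treatments. Among 23 other actin-binding proteins, 11 were lower (47.8%), 9 higher (39.1%) and 3 neither. The largest falls were those of ANLN (anillin, of the cytokinetic ring, -3.07), FLNC (filamin C, -2.57) and CORO1C (coronin 1C, -1.50), and CORO1B rose (log2 fold change 1.179). FLNC had a signal of 28145, 22845 and 26707 in the DMSO libraries and 4032, 4558 and 4436 in the erlotinib libraries. CORO1C was 15337, 15032 and 13646 in the DMSO libraries and 5013, 5356 and 5210.2 in the erlotinib libraries. ANLN was 12355, 13340.5 and 11898 in the DMSO libraries and 1509, 1583 and 1381 in the erlotinib libraries. CORO1B was 1968, 1382 and 1827 in the DMSO libraries and 3896, 3837 and 3864 in the erlotinib libraries. The adjusted p-values of ARPC5L, FMNL1, ANLN, FLNC, CORO1C and CORO1B were at most 6.7e-10 (limma).

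Of 20 other genes known as SRF targets, 13 were tested, and 8 were lower (61.5%), 4 higher (30.8%) and 1 (FHL1) neither, beside 35.4% and 35.3% of every gene tested. FHL2, a LIM protein, fell by 1.27 on the log2 scale (SE 0.08, limma adjusted p = 1.5e-11). EGR1, CTGF and FOS were also lower by at least 1 log2 unit (-2.06, -1.50 and -1.23, limma adjusted p of at most 0.001). FHL2 had a signal of 2465, 2762 and 2778 in the DMSO libraries and 1077, 1029 and 1209 in the erlotinib libraries. EGR1, an immediate early gene, was 978, 994 and 985 in the DMSO libraries and 256, 222 and 229 in the erlotinib libraries. FOS, another, was 89.6, 77.1 and 50.3 in the DMSO libraries and 35.1, 26.7 and 27.1 in the erlotinib libraries. CTGF, a matricellular protein gene, was 267, 246 and 225 in the DMSO libraries and 95.97, 83.2 and 80.5 in the erlotinib libraries. In all of these genes the erlotinib libraries lay below the DMSO libraries. Other immediate early genes of the list went both ways. JUNB (0.86) and FOSB (0.94) were higher and IER2 (-0.33) was lower, with a limma adjusted p of at most 0.025. FILIP1L had a signal of 42.0, 22.3 and 37.5 in the DMSO libraries and 505, 538 and 517 in the erlotinib libraries, a log2 fold change of 3.95 (SE 0.21, limma adjusted p = 6.8e-13), the largest rise among the listed genes. ANKRD1 was 49.9, 131 and 85.6 in the DMSO libraries and 312, 299.96 and 259 in the erlotinib libraries, a log2 fold change of 1.80 (SE 0.24, limma adjusted p = 1.1e-06). The striated and enteric actins ACTA1, ACTC1 and ACTG2 had too few reads to test.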

How the data were processed

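RNA of HCC827 cells was sequenced in 6 libraries (3 DMSO, 3 erlotinib). Per the study's methods and the submitters' processing notes, Bowtie2 2.3.4 placed read pairs on GRCh38, featureCounts 1.6.3 counted those with a unique position, and DESeq2 1.18.1 followed. What the authors deposited is signal, that is, reads divided by 1 size factor per library. Dividing by the step of each library gave whole reads, within 0.001, for 100% of values, so this division is read from the values and not stated in the sources used here. As the values are not counts, limma 3.58.1 (R 4.3.3) with a variance trend was run on log2(signal + 1) for 14215 genes (mean signal 10 or more), two-sided, with Benjamini-Hochberg adjustment over all of them and a threshold of 0.05. Fold changes are on that scale, which understates changes of low genes.

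The alternatives were edgeR 4.0.16 and DESeq2 1.42.0 on recovered reads, TMM and total-count scaling, pseudocounts of 0.1 and 10, no filter, at least 10 reads in every library, a threshold of 0.01, and each library left out in turn. For the family ratios, pseudocounts of 0.1 and 10 and each library left out were added after seeing the data. The fits were tested on simulated data. Genes named are all members, with values per library for SRF, the actins, and in each role the largest fall, the largest rise and the highest signal, and from the other lists the SRF cofactors, RHOA, RHOB, RHOC and those called with a change of at least 1 log2 unit. Some listed results are not reported here. FHL1, JUNB, FOSB, IER2, the untested actins and the neighbouring genes were named after their values were seen. The members and lists were chosen with earlier results of these data known. Levels were divided by the length of the canonical transcript in GENCODE release 44, and positions and promoters came from RefSeq (GRCh38.p14).

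Bowtie2 does not split reads across introns, and reads that also match a copy elsewhere are not unique, so levels of spliced genes with many copies may be too low. Transcripts were aligned to the genome with minimap2 2.31-r1302, and 13 of the 54 genes had a copy elsewhere with at least 50% of the transcript at an identity of at least 90%, among them ACTB with 9, CFL1 with 4 on chromosomes and ACTG1 with 1. In the table, the pseudogene rows named after ACTG1, TPM3, CFL1 and PFN1 held at most 2.94% of the signal of their gene.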

Additional observations from a re-analysis of the deposited data

How the results depend on the processing

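Over the 15 alternatives, 22 to 31 of the 54 genes were lower and 13 to 17 higher. Of the other actin and SRF genes, 28 to 44 were lower and 20 to 28 higher. These totals were all within 1.5 times the counts reported. The smaller counts of SRF targets moved further. With total-count scaling, ACTG1, CNN2, TPM1, MYH9, ZYX and SRF no longer counted among the 9 lower textbook targets. ACTG1, CNN2 and SRF no longer counted among the 5 lower genes with a CArG box. The fewest lower genes came from total-count scaling, under which 3955 of all tested genes were lower and 6156 higher, against 5031 and 5012. Leaving out a library gave 27 to 31 lower and 13 to 16 higher. On recovered reads, edgeR called 31 of the 54 lower and 16 higher, and 4941 and 5085 over all genes, and DESeq2 called 31 and 14. Calls were lost under at least 1 alternative for ACTG1, CNN2, TPM1, MYH9, MYL6, MYL12B, ZYX, DIAPH2, CAPZB and SRF, and MYL12A, TLN1, ARPC5 and ELK4 passed under some. The changes of the 5 ratios that moved by at least 1 log2 unit stayed within the spread between libraries under the alternatives added after seeing the data. No called gene among the members and listed genes recomputed under these alternatives changed sign. With total-count scaling the uncalled genes CALD1 (0.11), PDLIM7 (0.11), ACTR3 (0.060) and ELK4 (0.059) changed sign. With a library left out, CALD1 ranged from -0.12 to 0.03 and TLN2 from -0.17 to 0.14, with 0.028 for CALD1 without DMSO2, and -0.04 and -0.17 for TLN2 without DMSO1 and Erlo6. Of these changes, those with total-count scaling follow from the shift of all genes, and the cause of the others was not tested. No paired analysis was possible because, although the sample titles number both treatments 1 to 3, the erlotinib columns of the table are numbered 4 to 6 and could not be matched to single titles. Depth limits ACTA2, CNN1 and TLN2, which had the fewest reads.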

Other observations

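ACTB is often used as a reference gene, so other genes used in that way were looked at, chosen after the fall of ACTB had been seen. Of 7 that could be tested, 6 were lower with erlotinib, where 35.4% of all tested genes were. GAPDH, a glycolytic enzyme, went from 82576 ± 12753 in DMSO to 43589 ± 2406 with erlotinib (signal, SD, n = 3), a change of -0.91 (SE 0.09, limma adjusted p = 1.4e-08) on the log2 scale. HPRT1, of purine salvage, fell most, with a log2 fold change of -2.07 (SE 0.07, limma adjusted p = 1.7e-15), followed after GAPDH by TBP (-0.69), YWHAZ (-0.68), PPIA (-0.61) and RPLP0 (-0.31). GUSB was neither, with a log2 fold change of 0.22 (SE 0.10, limma adjusted p = 0.06). The log2 ratio of ACTB to GAPDH changed by -0.15, and that of ACTB to GUSB by -1.28. A level given relative to one of these genes therefore depends on which is used. The row TPM3P9, named for a pseudogene of TPM3, went from a signal of 398 ± 19.5 under DMSO to 179.9 ± 3.35 under erlotinib (mean ± SD of 3 libraries), a log2 fold change of -1.14 (limma adjusted p = 8.7e-08).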
